A study of Mus musculus with 14 samples.

Results

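Potassium channel genes of the mouse were examined for sites of trimethylation of histone H3 at lysine 27 (H3K27me3). The genes were all autosomal protein-coding genes of the GENCODE annotation of GRCm38, the assembly of all positions given here, whose symbol is Kcn followed by a letter and a number, such as Kcna1. There were 79 of them among 20807 autosomal protein-coding genes, and they lay on 18 autosomes. The letter names the subfamily. The rule uses the symbol and no measured value, but the family was chosen with earlier results of these data known.

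The sites came from ChIP-seq of H3K27me3 in iMEF cells, immortalised mouse embryo fibroblasts in which exon 4 of both floxed Ash2l alleles had been excised by an inducible Cre-ER and which expressed FKBP-HA2-ASH2L, human ASH2L fused to a degradation tag, from a lentiviral vector. The cells were of the clone NG3, so the libraries represent a single clone, and controls carried the same deletion and transgene as treated cells. ASH2L belongs to the COMPASS complexes, the methyltransferases of H3K4, and dTAG-13 is a small molecule that recruits an E3 ubiquitin ligase to the tag, after which the fusion protein is degraded. The experiment asked how the mark behaves when ASH2L is lost. It comprised 12 H3K27me3 libraries, in pairs from controls without dTAG-13 and from cells exposed to it during 30 min, 2 h, 4 h, 8 h or 16 h. Input chromatin was sequenced from controls and from the 16 h exposure, with 1 library each. The list examined here combines the sites of all samples and states where each site lies and nothing else. Without a value per library, control and treated cells could not be compared here. The paper reports such a comparison of H3K27me3, which was not used. In addition, no spread between replicates can be given, and the depth behind a site is unknown.

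Potassium channels let potassium ions leave or enter the cell, set the membrane potential and end action potentials. Most are tetramers of pore-forming subunits, and many genes of the family are used in neurons, heart, muscle, kidney or sensory cells rather than in fibroblasts. H3K27me3 is set by Polycomb repressive complex 2 (PRC2) and typically covers promoters and whole domains of developmental genes and of genes of other cell lineages that are not transcribed. Since the libraries are from bulk chromatin, sites present in all cells and in a part of the cells cannot be told apart.

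The list held 153983 sites, of which 144903 were on autosomes, with a median autosomal width of 460 bp and a smallest width of 200 bp. As a check of the cell type, 10 genes of fibroblast products such as collagens were looked up. Sites lay near the start sites of 2 of them, Col1a1 with 389 bp and Vim with 363 bp, and none of the 10 had a site of 1 kb or more there. Over all autosomal protein-coding genes the shares were 31.3% for any width and 20.3% for 1 kb or more, so that 10 genes check the label only weakly.

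Sites covered the start regions of most Kcn genes. A site lay within ± 1 kb of a transcriptional start site (TSS) of 69 of 79 Kcn genes (87.3%, 95% Wilson interval 78.2 to 93.0%), while the share over all autosomal protein-coding genes was 31.3%. The interval covers the counting of genes only. Most of these sites were wide. A site of at least 2 kb was present at 61 Kcn genes (77.2%, all genes 16.5%), of at least 5 kb at 43 (54.4%, all genes 9.05%) and of at least 10 kb at 28 (35.4%, all genes 4.01%). A site of at least 1 kb was present at 65 Kcn genes (82.3%, all genes 20.3%).

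**Figure D1:**
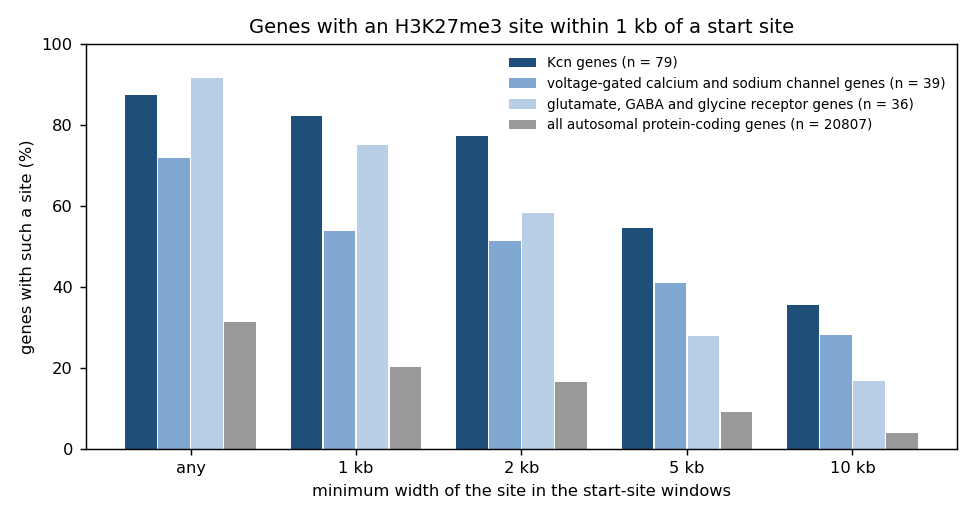
Percentage of genes (vertical axis) with an H3K27me3 site of at least the given width (horizontal axis) within 1 kb of a start site, as bars for Kcn genes, 2 other groups of ion channel genes and all autosomal protein-coding genes. The bars of Kcn genes fall from 87.3% for any width to 35.4% for 10 kb, and those of all genes from 31.3% to 4.01%.

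The windows were not only touched but mostly filled. Over the 79 genes the median share of the TSS windows covered by sites was 93.4% (binomial order-statistic interval 68.8 to 100%), and over all genes it was 0%. The windows were covered completely at 35 Kcn genes (44.3%, all genes 5.61%) and to at least 90% at 43 (54.4%, all genes 6.92%). The 5′ end of the gene itself lay inside a site in 58 cases (73.4%, all genes 17.0%).

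The widest site at a TSS had a median width of 7284 bp over the 69 Kcn genes with such a site and of 2322 bp over all genes with one. Widths depended on how near sites were merged. The median widest site in window or body, also 7284 bp, became 14601 bp with sites closer than 1 kb joined and 41229 bp with those closer than 5 kb joined. In 51 of the 69 genes this site held the 5′ end, and it then reached a median of 2.93 kb upstream and 5.937 kb into the gene. It extended farther into the gene than upstream in 34 of these and farther upstream in 17. The profile around the 5′ end had the same asymmetry. Sites covered 43.0% of Kcn genes at 5 kb upstream, 70.9% at 1 kb upstream, 75.9% at 1 kb downstream and 55.7% at 5 kb downstream. The values for all genes at these distances were 13.1%, 14.8%, 17.1% and 11.1%.

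**Figure D2:**
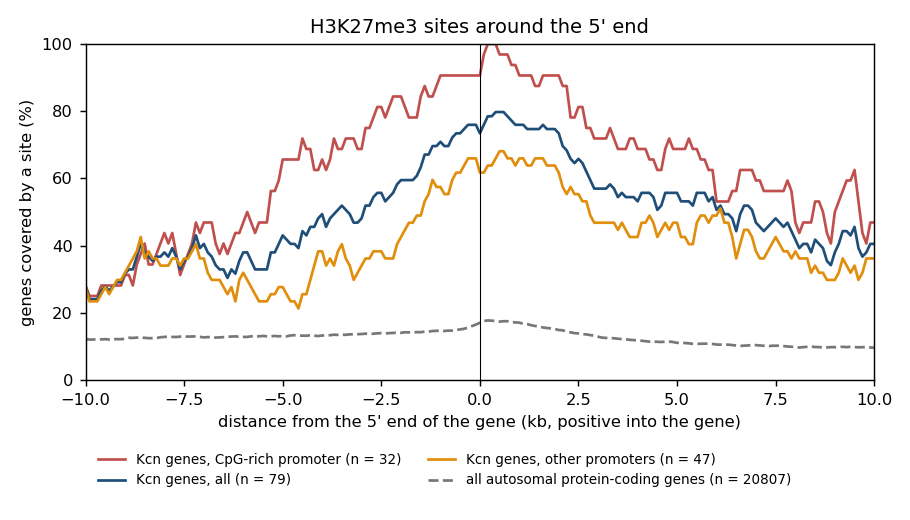
Percentage of genes covered by a site (vertical axis) at distances of up to 10 kb from the 5′ end (horizontal axis, kb, positive into the gene), for all Kcn genes, those with and without a CpG-rich promoter, and all autosomal protein-coding genes. The line of all Kcn genes is at 73.4% at the 5′ end and falls to 27.8% at 10 kb upstream and 40.5% at 10 kb downstream, and the line of all genes stays between 9.63% and 17.7%.

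Promoter sequences are shown for the widest domains over a start site and for members left free of sites, to give the base composition on which these results fall. They are RefSeq promoters of GRCm38.p6, from 250 bases before to 50 after the start, read 5′ to 3′ on the strand of the gene, with every CG dinucleotide in capitals. The RefSeq table matched 56 of the 79 members, and Kcnt1 was not among the 56. Shown first are Kcnk15 (chr2:163853500-163853799, plus strand), Kcnj10 (chr1:172340960-172341259, plus strand) and Kcnj9 (chr1:172329273-172329572, minus strand), the matched members with the widest sites over the RefSeq start. They are followed by Kcnt2 (chr1:140245468-140245767, plus strand) and Kcne4 (chr1:78816661-78816960, plus strand), which had the highest ratio of observed to expected CpG among matched members without a site.
Kcnk15: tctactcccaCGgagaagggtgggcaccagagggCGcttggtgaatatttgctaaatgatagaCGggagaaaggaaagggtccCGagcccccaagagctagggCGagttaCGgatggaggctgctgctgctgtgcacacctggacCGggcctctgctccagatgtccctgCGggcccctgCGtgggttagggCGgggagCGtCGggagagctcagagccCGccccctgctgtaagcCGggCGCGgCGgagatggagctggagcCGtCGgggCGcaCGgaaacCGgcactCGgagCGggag
Kcnj10: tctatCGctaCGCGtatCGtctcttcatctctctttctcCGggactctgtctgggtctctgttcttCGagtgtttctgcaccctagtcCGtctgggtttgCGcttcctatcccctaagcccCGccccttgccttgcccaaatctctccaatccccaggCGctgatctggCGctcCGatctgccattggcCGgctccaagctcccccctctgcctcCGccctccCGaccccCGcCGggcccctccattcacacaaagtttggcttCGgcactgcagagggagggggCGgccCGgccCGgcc
Kcnj9: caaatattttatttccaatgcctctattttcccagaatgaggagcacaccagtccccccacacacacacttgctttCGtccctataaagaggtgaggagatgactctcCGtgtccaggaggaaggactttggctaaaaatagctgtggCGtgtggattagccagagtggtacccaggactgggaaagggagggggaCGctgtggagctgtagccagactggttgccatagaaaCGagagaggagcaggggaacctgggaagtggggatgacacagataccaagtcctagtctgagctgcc
Kcnt2: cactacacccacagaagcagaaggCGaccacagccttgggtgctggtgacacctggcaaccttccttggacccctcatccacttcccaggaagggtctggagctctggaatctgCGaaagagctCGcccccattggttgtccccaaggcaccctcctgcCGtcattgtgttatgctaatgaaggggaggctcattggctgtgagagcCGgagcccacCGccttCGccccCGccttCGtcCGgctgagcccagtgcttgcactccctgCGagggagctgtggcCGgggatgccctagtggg
Kcne4: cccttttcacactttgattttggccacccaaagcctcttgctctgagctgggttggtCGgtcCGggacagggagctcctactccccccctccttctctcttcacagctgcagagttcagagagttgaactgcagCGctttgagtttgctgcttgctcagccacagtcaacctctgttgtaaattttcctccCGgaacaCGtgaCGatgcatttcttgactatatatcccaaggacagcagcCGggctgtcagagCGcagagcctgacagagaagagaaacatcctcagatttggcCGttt

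The CG content of the 3 promoters inside wide domains varied. The Kcnk15 sequence held 24 CG and that of Kcnj10 21, whereas that of Kcnj9, which lies in the same site as Kcnj10, held 5. The site-free promoters of Kcnt2 and Kcne4 held 12 and 9. Of 31396 autosomal promoter entries 20.5% had at least as many CG as Kcnk15, 25.4% as many as Kcnj10, 62.4% as many as Kcnj9, 40.1% as many as Kcnt2 and 46.2% as many as Kcne4. A CG was present in 94.8% of all entries, with a median of 7 per entry. The median was 13 over the 49 matched members with a site at a TSS and 6 over the 7 without. The RefSeq start of Kcnt2 was 440 bp from the GENCODE 5′ end, and those of the other 4 were at most 153 bp from it.

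Voltage-gated channels open when the membrane is depolarised. Sites lay at the TSS of 38 of 39 genes of this class (97.4%), with a median cover of 100%, and 17 of the 39 had a site of at least 10 kb there. The exception was Kcnv2, a modifier subunit, whose 5′ end was 40975 bp from the nearest site. In the plot of window cover by subfamily this class, 39 of the 79 genes, makes up 20 of the 35 points at 100%. Full cover was thus reached by 51.3% of the class and by 44.3% of all Kcn genes.

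**Figure D3:**
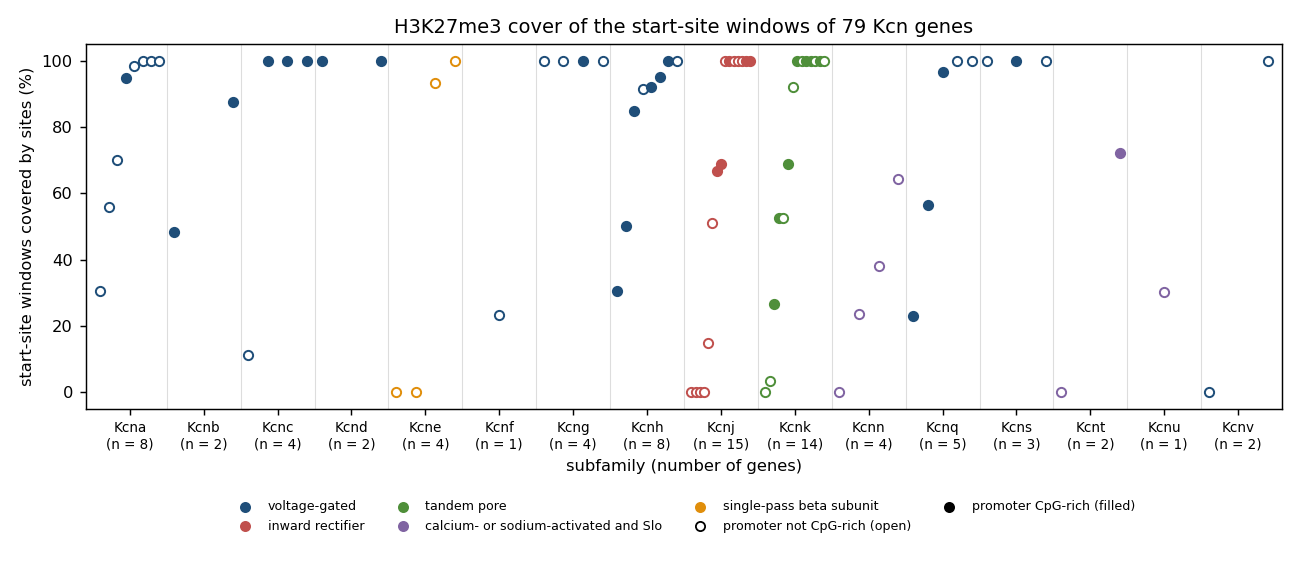
Share of the TSS windows covered by H3K27me3 sites (vertical axis, %) for each of the 79 Kcn genes, by subfamily letter (horizontal axis), with filled points for CpG-rich promoters and colours for channel classes. Every Kcng, Kcns and Kcnd gene is at 100%, and the 10 genes at 0% are Kcne, Kcnj, Kcnk, Kcnn, Kcnt and Kcnv genes.

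All 8 Kcna genes, which encode the Shaker-type delayed rectifier and A-type channels, had a site at a TSS, with cover between 30.6% at Kcna4 and 100%. Kcna5, the channel of the ultrarapid atrial current, lay wholly inside a site of 16.05 kb (chr6:126522478-126538527), and the window of Kcna2, an axonal channel, was filled by a site of 13.265 kb. Kcna1, another axonal subunit, had a site of 7.157 kb and a body cover of 93.1%. Kcna3, the main voltage-gated channel of T cells, had a site of 3.059 kb, and its body of 1.902 kb was covered completely. At Kcna10 the widest site in the windows had 0.637 kb and ended 8 bp from the 5′ end, while 91.2% of the body was covered. Kcna7, expressed mainly in muscle, was wholly inside a site of 11.969 kb that also held a start of Ntf5, a neurotrophin gene, and its window cover was 69.9%. Kcna6 had a site of 7.101 kb and 98.3% cover. In this subfamily 7 of the 8 bodies were covered to at least 50%, and that of Kcna4 to 38.0%.

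The Shaw-type Kcnc genes, which allow neurons to fire fast, spanned the range from full to low cover. Kcnc1 had a site of 16.344 kb and Kcnc4 of 14.334 kb. Kcnc2 was at the other end of the range with a site of 1.381 kb, window cover of 11.2% and a body of 195.904 kb covered to 0.891%. The windows of the A-type channel genes Kcnd2 and Kcnd3 were covered completely, at Kcnd2 by a site of 3.426 kb and at Kcnd3 by 2 sites, the wider of 13.399 kb.

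The delayed rectifier gene Kcnb2 had a widest site of 3.891 kb and a window cover of 48.2%. Kcnf1, Kcng, Kcns and Kcnv genes encode silent subunits that form channels only together with Kcnb subunits. The windows of all 4 Kcng genes and all 3 Kcns genes were covered completely. The widest of these sites was 18.009 kb at Kcng1, followed by 12.579 kb at Kcns2 and 12.098 kb at Kcng2, and the narrowest was 6.35 kb at Kcns1. Kcng4, Kcng3 and Kcns3 lay between these, with 9.666, 7.841 and 7.284 kb. Kcnv1 had a site of 2.443 kb and full cover. Kcnf1 had a site of 1.547 kb and 23.3% cover.

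The Kcnh genes encode the Eag, Erg and Elk channels, and all 8 had a site at a TSS. The widest were those of the Elk genes Kcnh4 (21.961 kb, window cover 100%) and Kcnh3 (20.591 kb, all 4 start sites inside sites) and of the Erg gene Kcnh6 (19.937 kb, 91.6%). The site of Kcnh4 also held the start of Hcrt, the gene of the neuropeptide orexin. Kcnh2, the Erg gene of cardiac repolarisation, had a site of 12.906 kb, 3 of its 5 start sites inside sites and the lowest cover of the letter, 30.6%. Kcnh5, an Eag gene, had a site of 4.819 kb and full window cover, and Kcnh7, an Erg gene, had a site of 1.839 kb and 84.9%. The Eag gene Kcnh1 had a site of 4.428 kb and 92.2%, and the Elk gene Kcnh8 had 4.248 kb and 50.0%. The Kcnh genes thus shared the presence of a site at a TSS and differed in its width, in window cover and in the start sites covered.

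All 5 Kcnq genes had a site at a TSS. Kcnq1, the pore of the slow cardiac delayed rectifier, which lies in an imprinted region, had all 7 start sites in a site of 9.41 kb. Kcnq3 and Kcnq5 contribute to the neuronal M current. Kcnq3 had a site of 8.391 kb and 56.4% cover, and Kcnq5 a site of 1.009 kb and 23.1%, the lowest of the letter.

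Inward rectifiers hold the resting potential. Members of this class ranged from wide domains to no site. A site lay at a TSS of 11 of 15 Kcnj genes (73.3%), of at least 10 kb in 7, and the windows of 7 were covered completely, while 4 had no site there. The G-protein-gated subunit gene Kcnj9 and the glial channel gene Kcnj10 shared a site of 30.215 kb (chr1:172325496-172355710) that covered the whole interval of 11.892 kb between them. It was the only site shared by 2 members. Other subunits of G-protein-gated channels were Kcnj5 with a site of 15.117 kb, Kcnj6 with 10.192 kb and Kcnj3 with 4.013 kb. All 4 genes of this functional group thus had a site of at least 2 kb over a start.

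Kcnj11 and Kcnj8 encode the pores of ATP-sensitive channels. Kcnj11 lay entirely in a site of 22.212 kb (chr7:46091763-46113974), which also held a start of Abcc8, the sulphonylurea receptor that assembles with it. Kcnj8 had a site of 6.817 kb and full window cover. Among strong inward rectifiers, Kcnj4 had a site of 24.844 kb and full cover and Kcnj12 one of 24.695 kb and 68.9% cover. The genes of the same functional group without a wide site were Kcnj2, with a site of 294 bp and 14.7% cover, and Kcnj14, whose nearest site was at 6961 bp. Kcnj1, the renal secretory channel, had a site of 4.639 kb and 51.0% cover. No window site was found at Kcnj13, an epithelial channel, at Kcnj15 or at Kcnj16, whose 5′ ends were 49862, 38421 and 57040 bp from the nearest site.

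Tandem-pore (Kcnk) channels carry background currents. A site lay at a TSS of 13 of 14 genes (92.9%), with a median cover of 96.0%, and 12 had a site of at least 2 kb there. Kcnk15, a relative of the acid-sensitive channels, had the widest, 30.955 kb (chr2:163849127-163880081), and its body of 6.096 kb was wholly inside. The acid-sensitive channels proper had sites of 5.886 kb at Kcnk9, with full cover, and 4.454 kb at Kcnk3, where the site ended upstream of the 5′ end and both start sites lay outside sites. Kcnk12 and Kcnk13 had sites of 14.012 kb and 9.738 kb and Kcnk1 one of 10.477 kb, all with full window cover. Kcnk18 had a site of 5.283 kb and Kcnk4 one of 4.105 kb, both again with full cover.

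The mechanosensitive channels of this class differed from each other. Kcnk4 was covered as above, Kcnk10 had a site of 4.25 kb and 52.6% cover, and Kcnk2 had a single site of 365 bp that took up 3.35% of the windows of its 10 start sites, none of which was in a site. This was the lowest cover of any member with a site. The alkaline-activated Kcnk16 and Kcnk5 had 92.0% and 26.5%, and Kcnk6 had 68.8%. Kcnk7, with a body of 2.743 kb, had no site, and the nearest was 30575 bp from its 5′ end.

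The class of calcium- or sodium-activated channels and the related Slo channel gene Kcnu1 had a site at a TSS in 5 of 7 genes, none with full window cover, and a median of 30.3%. Kcnt1, a sodium-activated channel of neurons, had a site of 34.935 kb (chr2:25869706-25904640) and 13 of its 15 start sites inside sites. Its paralog Kcnt2 had no site in its windows or in its body of 365.91 kb, and the nearest site was 409800 bp from its 5′ end, the largest distance of any member. The small-conductance channel genes Kcnn1, Kcnn2 and Kcnn3 had sites of 3.871, 3.291 and 5.362 kb. At Kcnn2 the site lay at internal start sites, 3 of 7, and the 5′ end was 212594 bp from the nearest site. Kcnn4, the intermediate-conductance channel of blood cells and proliferating cells, had no site, the nearest being at 6597 bp. Kcnu1, which encodes a channel of sperm, had a site of 5.64 kb and 30.3% cover.

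The Kcne genes encode small beta subunits that pass the membrane once and modify Kcnq1 and other channels. Kcne3 had a site of 9.172 kb with full window cover, and Kcne2 one of 4.951 kb with 93.4%. Kcne1 and Kcne4 had none. The nearest site was 1085 bp from the 5′ end of Kcne1, just outside its window, and 8552 bp from that of Kcne4.

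The 10 members without a site at a TSS were thus Kcne1, Kcne4, Kcnj13, Kcnj14, Kcnj15, Kcnj16, Kcnk7, Kcnn4, Kcnt2 and Kcnv2. Of these, 8 had no site in the body either. Kcnj15 had 1 body site of 611 bp and Kcnj16 1 of 250 bp. Distances to the nearest site ranged from 1085 bp at Kcne1 to 409800 bp at Kcnt2. A site missing from the list was not called by the authors, which does not show that the mark was absent. The 74 patch sequences of the assembly repeated no start site of a Kcn gene, at up to 1 difference per 1000 bases, and a part of 1 body, 17.2% of Kcnn1.

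Sites lay in the body of 71 of 79 Kcn genes (89.9%, all genes 46.5%). The median body cover was 41.2% (interval 30.3 to 64.7%), and 36 bodies were covered to at least 50% (45.6%, all genes 9.53%). Cover was lower in longer bodies. Among 20 genes with a body under 10 kb, 12 were covered to at least 50% (all genes of this length 14.3%) and the median was 87.7%. Among 41 genes of 10 to 100 kb it was 23 (all genes 7.86%), with a median of 53.8%. Among 18 genes of 100 kb or more it was 1, Kcnn3 with 64.8% (all genes 2.61%), and the median was 2.13%. Yet 17 of these 18 long genes had a site at a TSS (all genes of this length 45.7%), and the body held a site in 17 as well (all genes of this length 81.2%). A site at a TSS was found in 36 of 41 genes in the middle class (all genes 30.1%) and 16 of 20 in the short class (all genes 28.4%).

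Bodies that were covered completely included those of Kcna3, Kcna5, Kcna7, Kcnj11 and Kcnk15. Among the 18 long genes, 2 patterns recurred, described after the values were seen and not covering every gene. In the first, a site at the promoter was followed by an almost empty body, as at Kcnd2 (514.303 kb, 0.671% covered), Kcnh5 (280.113 kb, 0.975%), Kcnh7 (490.874 kb, 0.254%), Kcnj3 (162.176 kb, 1.57%) and Kcnq5 (563.54 kb, 0.258%). In the second, many sites were spread over the body, namely 117 at Kcnq3 (36.5% covered), 100 at Kcnh1 (30.3%), 96 at Kcnj6 (39.6%), 86 at Kcnd3 (42.1%) and 66 at Kcnq1 (18.6%). Members of a subfamily could be in different patterns, as Kcnd2 and Kcnd3 or Kcnq5 and Kcnq3 were. Neither pattern was seen at Kcnt2 without a site, at Kcnn2 with a 5′ end far from any site, at Kcnk2 with narrow sites only, or at Kcnb2 with 29 sites that covered 3.17% of its body.

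**Figure D4:**
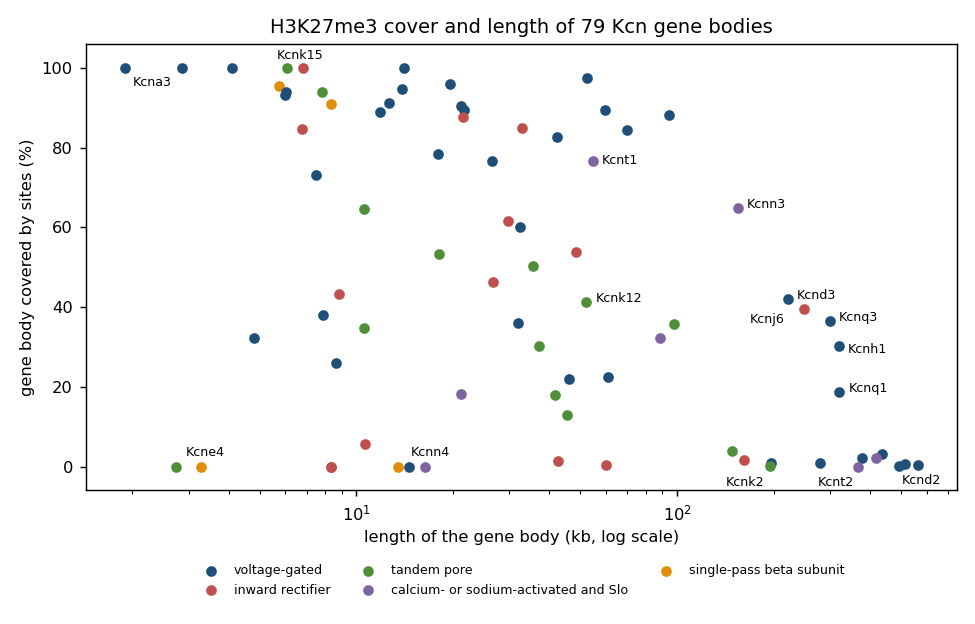
Share of the gene body covered by sites (vertical axis, %) against the length of the body (horizontal axis, kb, log scale) for 79 Kcn genes, coloured by channel class. The short genes reach 100%, and the 18 genes of 100 kb or more lie at or below 64.8%.

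Over the 71 Kcn genes with a body site, Spearman's rho of length and cover was -0.67, and over all genes with a body site it was -0.59. Over all 79 members, those without a body site included, the rho of length and cover was weaker, -0.41. Over all 79 members the rho of length and number of body sites was 0.62. These are descriptions across genes, which are not independent replicates. In all, 954 sites overlapped a window or body of a Kcn gene, and 108 of them overlapped a window. Their median width was 596 bp, and 35 had at least 10 kb (3.67%, against 0.995% of autosomal sites). The centres of 811 were in introns of the member, of 104 in exons and of 39 outside the body.

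**Figure D5:**
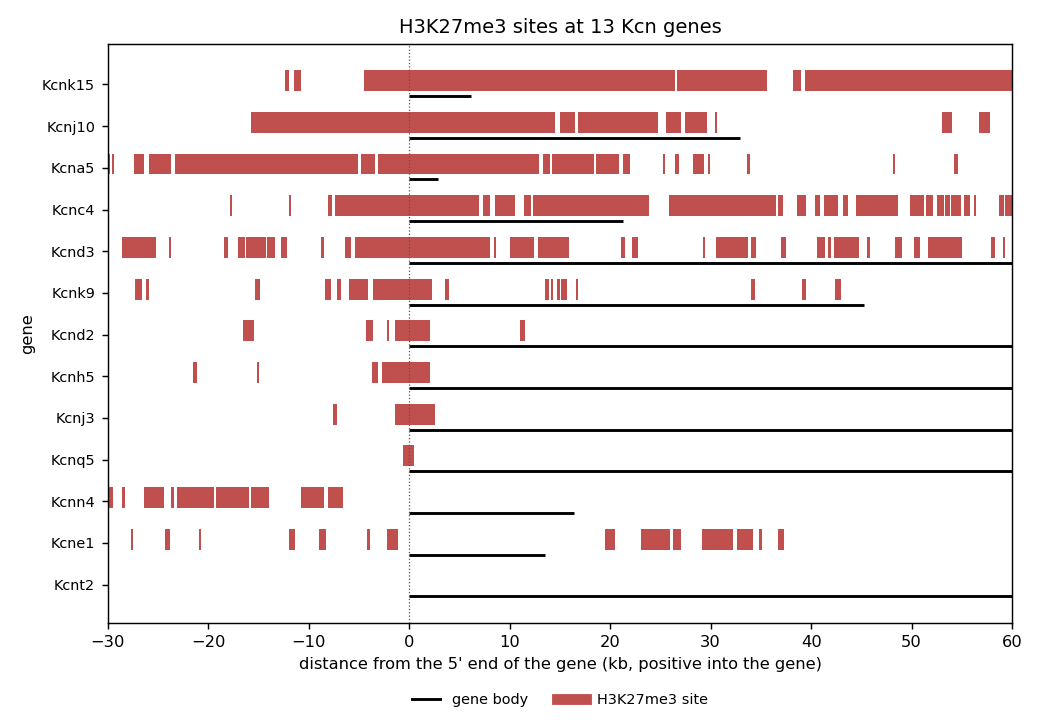
Sites (red blocks) and gene bodies (black lines) of 13 Kcn genes, chosen after their values were seen, by distance from the 5′ end (horizontal axis, kb, positive into the gene). Kcna5 and Kcnk15 lie in domains that run past both ends of the gene, Kcnd2, Kcnh5, Kcnj3 and Kcnq5 have a block at the start followed by a nearly bare body, and Kcnt2 has none.

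Many Kcn genes have several start sites, and these were not always covered together. Of 260 annotated start sites of members 177 lay inside a site (68.1%), while 12.7% of the start sites of all genes did. In 46 genes every start site was inside a site (all genes 11.3%), in 16 a part (all genes 10.2%), and in 17 none. Of the 46, 13 have only 1 start site, which cannot be covered in part. The share for all genes includes genes with 1 start site as well. Genes that differed between their start sites included Kcnj6 (5 of 7), Kcnn1 (4 of 8), Kcnt1 (13 of 15), Kcnk10 (3 of 4) and Kcnq5 (3 of 4). Of 16 members with 1 start site 15 had a site in the window (93.8%), while 30.8% of all genes with 1 start site did.

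As CpG-rich counted promoters with at least 50% GC and an observed-to-expected CpG ratio of 0.6 or more in the 500 bp up- and downstream of the 5′ end. All 32 CpG-rich Kcn promoters had a site in the window, whereas of all CpG-rich genes 24.8% had one. A site of at least 2 kb was present in 30 of the 32 (all CpG-rich genes 14.3%). Of 47 Kcn genes without a CpG-rich promoter 37 had a site (78.7%, all such genes 36.8%), of at least 2 kb in 31 (all such genes 18.3%). The 10 members without a site were all in this second group. Among all genes the share was thus smaller for CpG-rich promoters than for the others, and among Kcn genes it was larger, a difference that was not tested. CpG-poor promoters could be filled by wide sites, as at Kcna5 (ratio 0.297), Kcng4 (0.177) and Kcne3 (0.0683). Across the 79 genes the rho of the CpG ratio and the window cover was 0.29.

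Some Kcn genes are neighbours and are not independent. There were 8 pairs of members less than 100 kb apart, with 15 genes. The interval between Kcna1 and Kcna6 (61.945 kb) was covered to 65.6%, that between Kcnj1 and Kcnj5 (28.143 kb) to 56.5% and that between Kcna2 and Kcna10 (68.051 kb) to 48.8%. The intervals between Kcna2 and Kcna3, Kcne1 and Kcne2, and Kcnk5 and Kcnk16 were covered to 25.6%, 23.7% and 20.2%. Between Kcnj2 and Kcnj16 (38.196 kb) it was 0%. In 6 of the 69 Kcn genes with a site at a TSS, the widest such site also held a start of another protein-coding gene. Among the 6 are Kcnj9 and Kcnj10, whose shared site holds the starts of both. Overlap with the bodies of other genes was not measured, nor was the same share over all genes. A median of 63.5% of the widest site at a TSS lay in the body of the member, and at Kcnj9 12.7% did. At 10 to 100 kb from the 5′ end on both sides, outside the gene body, the median cover was 14.2%, against 4.83% for all genes. For bodies of 100 kb or more only the upstream side entered this value.

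Genes of other potassium channel subunits and of the related pacemaker channels were also mostly marked. Of 24 such genes 21 had a site at a TSS (87.5%), and 15 had one of at least 2 kb, with a median cover of 50.5%. The widest were at the pacemaker channel gene Hcn4 with 44.058 kb, at Kcnip3, a calcium-binding modulator of Kcnd channels, with 36.56 kb and at Abcc8 with 28.383 kb. There was none at Kcnab3, Kcnmb3 and Lrrc38. Among voltage-gated calcium and sodium channel genes 28 of 39 had a site (71.8%), of at least 2 kb in 20, with a median cover of 14.5%. Among glutamate, GABA and glycine receptor genes it was 33 of 36 (91.7%), of at least 2 kb in 21, with a median of 48.0%. The differences between these groups and the Kcn genes were not tested, and H3K27me3 at a start site was not particular to Kcn genes.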

How the data were processed

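H3K27me3 ChIP-seq libraries had been trimmed by the authors with Trim Galore, aligned with BWA to mm10 (GRCm38.p6) and filtered with SAMtools, and replicates had been merged with Picard. Broad peaks were called with MACS2 according to the submitters' processing notes and combined over samples. Versions, peak threshold and merging rule are not given in the sources used here. The deposited list of the authors holds positions only, in no unit of signal. Starts were read as counted from 0 and are printed from 1, and 0 sites ran past a chromosome end.

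Genes were taken from GENCODE M21 on GRCm38, an earlier release than that of the study. TSS windows joined ± 1 kb (2001 bp) around the start of every transcript. The members and the gene lists were chosen with earlier results of these data known. All members entered the counts, and a few are not reported here by name. Full values were planned for the 20 with the largest window cover, the 5 with the largest body cover and the extremes of each letter, and promoter sequences for the 3 members with the widest sites over the TSS and for 2 without a site. Tests between groups could not be run on positions alone, and the planned search for a pore signature was left out because protein sequences were not used here. Scripts used Python 3.11.15, numpy 2.4.6, scipy 1.17.1 and minimap2 2.31-r1302, and the interval functions were tested on simulated data.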

Additional observations from a re-analysis of the deposited data

How the results depend on the processing

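No paired analysis was possible because only positions are given in the list, although the labels number the replicates, and without values per library none of the replicates could be dropped. The 10 alternative settings joined near sites, dropped narrow ones or changed the window, the start sites, the overlap or the body, and each result was recomputed under those that bear on it. With the reported value included, 65 to 71 Kcn genes had a site at a TSS (9 settings), 59 to 64 had one of at least 2 kb (6 settings) and 67 to 71 had a body site (6 settings). The median window cover was 82.7 to 100% (8 settings). Results that moved were those on width and body cover. With sites closer than 1 kb joined, the median widest site in window or body, 7284 bp as reported (all genes 1057 bp), was 14601 bp (all genes 2024 bp). With sites closer than 5 kb joined it was 41229 bp (all genes 5790 bp), and the median body cover was 70.4%. Joining itself fills the gaps between sites. Widths therefore depend on how the sites were merged, and depth and peak threshold, which are unknown here, limit what an uncovered gene shows.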

Other observations

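The X-linked genes Kcnd1 and Kcne1l were outside the set, and their sites were narrow. The symbol of Kcnd1 fits the rule, whereas that of Kcne1l does not, and this gene was added by name. Kcnd1, an A-type channel gene and paralog of Kcnd2 and Kcnd3, had a site of 375 bp that covered 18.6% of its TSS windows and 1.44% of its body. Kcne1l, a small beta subunit gene, had 2 sites of at most 671 bp that covered 66.0% of its windows and 57.9% of its body. Neither had a site of 1 kb or more there, whereas 65 of the 79 autosomal members did. Chromosome X was not compared with the autosomes.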
